A study of Mus musculus with 10 samples.

Results

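The genes described here are 10 members of the Toll-like receptor system, the receptor genes Tlr1, Tlr2, Tlr3, Tlr4, Tlr7, Tlr8, Tlr9 and Tlr13, the co-receptor gene Cd14 and the adaptor gene Myd88. They were chosen by symbol from 26173 Entrez genes in the deposited table, and all 10 were found. Of these, 8 had at least 1 FPKM in at least 2 samples, as did 11336 genes in all. Tlr1 and Tlr9 did not. FPKM is the number of fragments per kilobase of transcript and per 1 M fragments, so levels of different genes can be compared per length.

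RNA was sequenced from alveolar macrophages, the resident phagocytes of the airspaces, of C57BL/6 mice labelled female and 16 weeks old. The conditional line carried floxed Bach2, the gene of a transcription repressor, with CD4cre, a Cre transgene expressed in T cells, so its macrophages need not have lost Bach2 themselves. Macrophages of these Bach2-floxed CD4cre knockout mice were profiled as an aberrant-marker and a normal-marker fraction, separated by whether their surface markers differed from those of control mice, beside macrophages of Bach2-floxed CD4cre control mice. The other groups were Bach2 germline KO mice and WT mice. Each of the 5 groups had 2 samples, and the labels do not say whether these came from separate mice or from pools. The sources used here do not name the surface markers that defined the fractions, and whether levels of genes for surface proteins follow from that choice was not tested.

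Samples of the same group differed by little more than sampling noise, so each group is treated as 1 library with 2 columns of values. Pearson correlations of log2(FPKM + 1) across genes, which are not independent replicates, ranged over 0.993 to 0.998 for the 5 pairs within groups and 0.685 to 0.853 for the 40 pairs between groups. Among genes at 1 to 3 FPKM in either sample, 0% to 0.170% were listed at 0 in 1 sample of a pair within groups, and 15.1% to 22.1% in pairs between groups. All comparisons therefore have n = 1 library per group and no p-value, and the difference between the control libraries (wild type over conditional control) is given as a yardstick. These control libraries differ in mouse line and in the sex-linked genes Eif2s3y and Xist given below. The yardstick is therefore not a spread between like libraries. Tlr7, Tlr8 and Tlr13 lie on the X chromosome, and the part of sex in their levels was not tested. Depth, estimated from the steps of the lowest values, was about 7.58 M to 9.64 M fragments per sample. The knocked-out gene could not check the labels, since Bach2 was at 0.0203, 0.0571 and 0.0186 FPKM in the aberrant-marker, normal-marker and conditional control libraries and at 0.0292 FPKM in the germline KO and far under the worth of a read in the wild-type library. The Y-linked gene Eif2s3y was at 39.9 FPKM in the germline KO and 60.8 FPKM in the wild type and at 0.107 FPKM or less in the other libraries, against the label female, whereas Xist, which marks an inactive X chromosome, was at 9.08, 6.83 and 3.75 FPKM in the aberrant-marker, normal-marker and conditional control libraries and at or under 0.00237 FPKM in the germline KO and wild-type libraries.

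The labelled cell type was checked against 11 genes that mark alveolar macrophages. All 11 were at 1 FPKM or more in the normal-marker, conditional control and wild-type libraries, and 9 were in each of the aberrant-marker and germline KO libraries. Over the conditional control, 7 of the 11 were lower and 0 higher in the aberrant-marker library, by 4-fold or more and with a higher mean of 20 FPKM or more. Of all 11336 genes, 3.76% were lower and 4.09% higher by this rule. For the germline KO over the wild type 5 were lower (Ear1, Siglec5, Krt79, Marco and Ear2) and 1 was higher, Chil3, at 46574 against 9278 FPKM. Of all genes, 3.36% were lower and 2.73% higher in that comparison. The summed level of the 11 was 8878 to 9004 FPKM in the aberrant-marker samples, against 15511 to 15740 FPKM in the conditional control samples. It was 47663 to 47889 FPKM in the germline KO samples, against 17569 to 17777 FPKM in the wild-type samples. Chil3 made up most of each of these sums, with 8291 FPKM in the aberrant-marker library and 9166 FPKM in the conditional control. The median log2 difference of the 11 was -2.80 for the aberrant-marker library over the conditional control. For the germline KO over the wild type it was -1.51. The defining gene Siglec5, the table's entry for Siglec-F, was at 0.134 and 94.1 FPKM in the aberrant-marker and normal-marker libraries, against 197 FPKM in the conditional control, and at 0.0247 FPKM in the germline KO, against 151 FPKM in the wild type, whereas Itgax was at 365 FPKM in the germline KO, against 289 FPKM in the wild type. All 7 T cell markers measured were at 1 FPKM or more in the aberrant-marker library, with a summed level of 239 to 240 FPKM, against 0 of 7 in the normal-marker and conditional control libraries. Of 10 dendritic cell markers, 8 were at 1 FPKM or more there, with a summed level of 3482 to 3513 FPKM, against 64.5 to 76.4 FPKM in the normal-marker and 30.2 to 32.7 FPKM in the conditional control samples. In the germline KO only 1 of the 7 T cell markers reached 1 FPKM. This was Il7r, at 41.7 FPKM against 0.0156 FPKM in the wild type. Of the 10 dendritic cell markers, 4 were at 1 FPKM or more in the germline KO and 3 in the wild type. Their sum was 157 to 161 FPKM in the germline KO samples, against 64.2 to 72.03 FPKM in the wild-type samples. Ccr7, at 71.6 FPKM against 0.0333 FPKM, made up most of that gap. By the 4-fold rule used above 1 of the 10 was higher, Ccr7, and 0 were lower, with a median log2 difference of 0.09. Of the other marker genes, the myeloid integrin gene Itgam, low in alveolar macrophages, was at 26.2 FPKM in the aberrant-marker library and 99.3 FPKM in the germline KO, against 2.42 FPKM in the conditional control and a listed 0 in the wild type. The labels call every sample alveolar macrophage, and in such bulk samples fewer cells of a type and less RNA per cell cannot be told apart.

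Toll-like receptors recognise conserved microbial molecules. Those on the cell surface bind lipids and proteins of microbes, and those of the endosome bind nucleic acids. Most of them signal through the adaptor MyD88 and IRAK kinases to NF-kB and interferon regulatory factors, while TLR3 signals through TRIF, the product of Ticam1. CD14 passes lipopolysaccharide on to TLR4 and its partner MD-2, the product of Ly96. Alveolar macrophages meet inhaled microbes first and are known for a restrained response to them.

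Across the libraries Tlr2, Cd14 and Myd88 were the most abundant of the 10 genes, Tlr4, Tlr7, Tlr8 and Tlr13 were intermediate, and Tlr3 was low. In the aberrant-marker library Tlr8 fell to the level of a single read, and Tlr2, Tlr4, Tlr7 and Myd88 stood more than 1 log2 unit under the conditional control. For Tlr7 the wild type was also under the conditional control, with a log2 difference of -1.60. The germline KO library shared the low Tlr2 and Tlr4 levels and had the lowest Cd14 level, while its Myd88 level was close to that of the wild type and its Tlr7 level was above it. In the normal-marker library 6 of the 8 genes were within 1 log2 unit of the conditional control, the exceptions being Tlr7 and Tlr3.

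**Figure D1:**
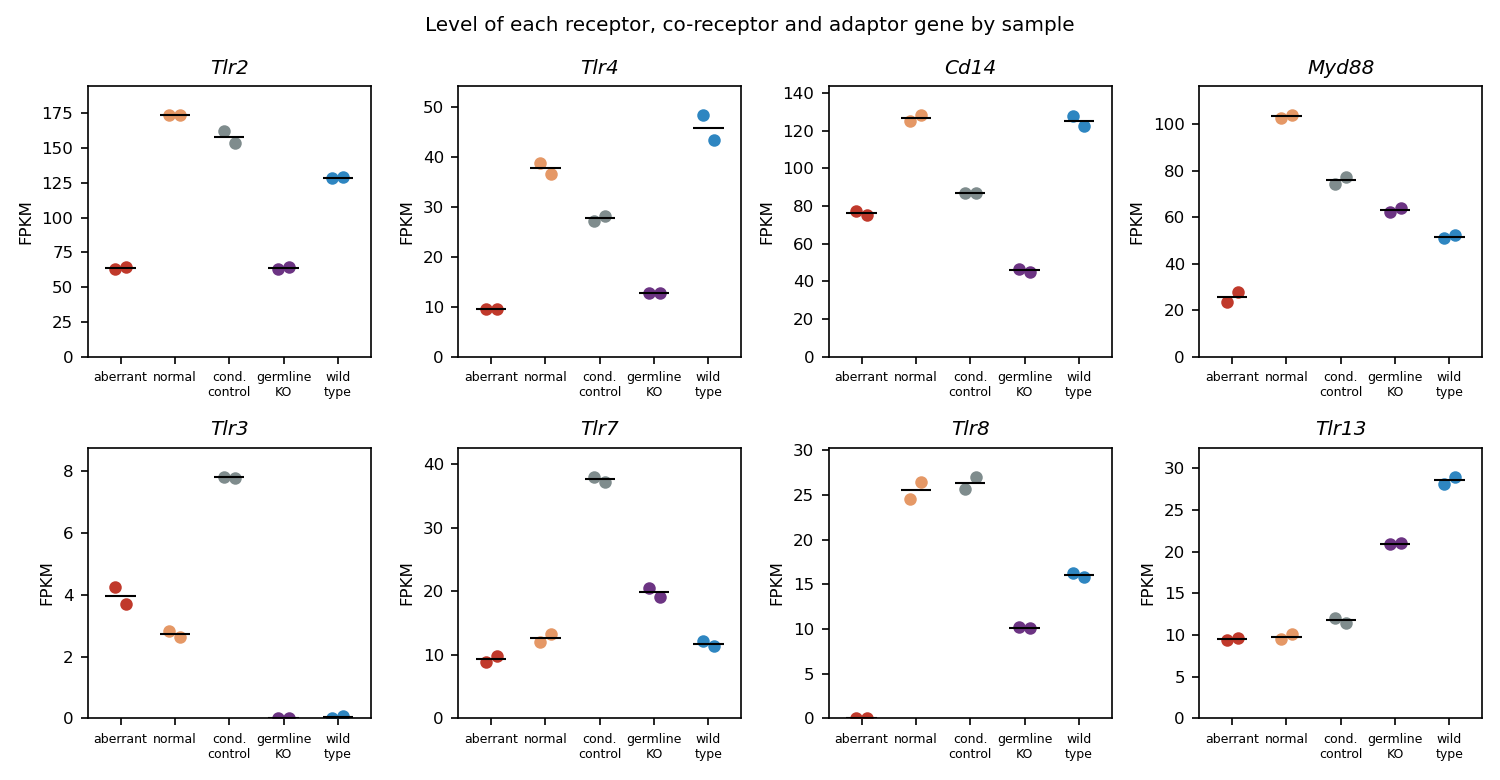
FPKM (vertical axis, linear, from 0) of the 8 genes that passed the filter, by group (horizontal axis). Points are the 2 samples of a group and the black line is their mean. The aberrant-marker and germline KO points of Tlr2, Tlr4, Tlr8 and Cd14 lie under all points of the other 3 groups.

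A gene was called higher or lower between 2 libraries where log2(FPKM + 1) differed by 2 units or more, which is 4-fold, in the means and in every pairing of their samples, and the higher mean reached 20 FPKM. For the aberrant-marker library over the conditional control, 1 of the 8 genes was lower, Tlr8, and 0 were higher, against 3.76% lower and 4.09% higher of the 11336 genes. The median log2 difference of the 8 was -1.37, and that of all genes was 0.00. With 2-fold in place of 4-fold, 5 of the 8 were lower (Tlr2, Tlr4, Tlr7, Tlr8 and Myd88) against 9.13% of all genes, and 0 were higher against 8.6%. The 4-fold count rests on a single gene.

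Promoter sequences from RefSeq (GRCm38.p6) were at hand for 7 of the 10 genes, and the bases before the start are shown for Tlr2, Tlr8 and Myd88, which were at least 2-fold lower in the aberrant-marker library, and for Tlr13, which was not. Each is 250 bases, 5′ to 3′ on the gene's strand. Capitals mark GAGGAA or its reverse complement, a core recognised by PU.1, the macrophage lineage factor. The deposited values carry no coordinates.
Tlr2 (chr3:83841609-83841858, minus strand): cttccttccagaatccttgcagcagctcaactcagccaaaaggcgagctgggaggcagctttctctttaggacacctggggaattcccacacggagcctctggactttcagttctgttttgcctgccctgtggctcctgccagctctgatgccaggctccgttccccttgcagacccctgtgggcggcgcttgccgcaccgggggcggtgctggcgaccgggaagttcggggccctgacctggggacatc
Tlr8 (chrX:167264330-167264579, minus strand): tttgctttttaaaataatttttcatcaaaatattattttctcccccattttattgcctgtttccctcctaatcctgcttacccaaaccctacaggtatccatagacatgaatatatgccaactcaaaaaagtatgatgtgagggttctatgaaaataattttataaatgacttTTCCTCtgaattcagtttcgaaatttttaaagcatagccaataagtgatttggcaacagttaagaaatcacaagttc
Myd88 (chr9:119340019-119340268, minus strand): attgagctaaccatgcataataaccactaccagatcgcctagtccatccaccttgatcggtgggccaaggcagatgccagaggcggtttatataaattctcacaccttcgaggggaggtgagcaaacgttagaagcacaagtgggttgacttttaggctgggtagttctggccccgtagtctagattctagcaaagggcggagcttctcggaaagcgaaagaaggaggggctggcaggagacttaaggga
Tlr13 (chrX:106143025-106143274, plus strand): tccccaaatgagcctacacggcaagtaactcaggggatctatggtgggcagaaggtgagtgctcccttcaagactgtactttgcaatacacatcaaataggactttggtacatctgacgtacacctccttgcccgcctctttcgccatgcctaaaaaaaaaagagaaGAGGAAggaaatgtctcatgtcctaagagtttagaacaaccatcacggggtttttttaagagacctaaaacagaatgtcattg
GAGGAA on either strand stood once in the Tlr8 and once in the Tlr13 window and in neither the Tlr2 nor the Myd88 window, and it was in 4 of the 7 member windows (Tlr1, Tlr8, Tlr9 and Tlr13) and in 23.3% of the 32851 windows of this length. TGAGTCA, a core bound by AP-1 and Bach factors, was found in the Tlr9 window alone of the 7 genes and in 4.46% of all windows. The motifs were chosen after the values were seen, and a match is only a run of letters.

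Among the surface receptors, Tlr2 encodes the receptor of bacterial lipoproteins, which pairs with TLR1 or TLR6. It was at 63.4 and 64.6 FPKM in the aberrant-marker samples and at 174 and 174 FPKM in the normal-marker samples, against 162 and 153 FPKM in the conditional control samples. The log2 difference was -1.29 for the aberrant-marker library over the conditional control and -1.43 over the normal-marker library, and 0.14 for the normal-marker library over the conditional control. In the germline KO samples it was at 63.1 and 64.3 FPKM, against 128 and 129 FPKM in the wild-type samples, a log2 difference of -1.002. The aberrant-marker and germline KO samples thus had nearly equal Tlr2 levels, and neither overlapped the other 3 groups. The yardstick difference of the wild type over the conditional control was -0.29.

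Tlr4, the lipopolysaccharide receptor, was at 9.53 and 9.59 FPKM in the aberrant-marker samples and at 38.9 and 36.6 FPKM in the normal-marker samples, against 27.3 and 28.2 FPKM in the conditional control samples. It was at 12.7 and 12.8 FPKM in the germline KO samples, against 48.4 and 43.4 FPKM in the wild-type samples. The samples of the aberrant-marker and germline KO groups were the lowest, and no groups overlapped. The log2 differences were -1.44 for the aberrant-marker library over the conditional control, -1.88 over the normal-marker library and -1.77 for the germline KO over the wild type, all short of the 4-fold rule. Set against the wild type in place of the conditional control, a reference chosen after the data were seen, the aberrant-marker value was -2.15 and passed the rule. The yardstick difference was 0.71.

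Tlr1, which encodes a partner of TLR2, reached 0.674 and 0.598 FPKM in the aberrant-marker samples, summed over 5 transcripts, and was far under the worth of a read in the other 8 samples. Tlr6, which lies beside Tlr1 and encodes the other TLR2 partner, was at 0.0897 and 2.14 FPKM in the aberrant-marker and normal-marker libraries, against 12.01 FPKM in the conditional control, and at 1.81 FPKM in the germline KO against 0.370 FPKM in the wild type. The sequences of Tlr1 and Tlr6 are alike in part, so the division of reads between them is an estimate of the authors' quantification. By that estimate no library held more than 1 FPKM of Tlr1, and Tlr6 was above 3 FPKM in the conditional control alone. Tlr5, the flagellin receptor gene, was listed at 0 in the germline KO and was at 20.6 FPKM in the wild type, and passed the rule in that comparison (log2 difference -4.43). It was also higher in the wild type than at 3.27 FPKM in the conditional control (log2 difference 2.33).

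Cd14 was at 77.6 and 75.4 FPKM in the aberrant-marker samples and 125 and 128 FPKM in the normal-marker samples, against 87.0 and 87.1 FPKM in the conditional control samples. It was at 46.5 and 45.2 FPKM in the germline KO samples, against 128 and 122 FPKM in the wild-type samples. The log2 difference of the germline KO over the wild type was -1.43, and that of the aberrant-marker library over the conditional control was -0.18. The normal-marker and wild-type samples overlapped, and the germline KO samples were the lowest of all 10. The yardstick difference was 0.52, larger than the aberrant-marker difference from the conditional control.

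Ly96, the MD-2 gene whose product TLR4 needs at the surface, took another course. It was at 103 and 106 FPKM in the aberrant-marker samples and 30.9 and 31.8 FPKM in the normal-marker samples, against 33.3 and 31.1 FPKM in the conditional control samples. In the germline KO samples it was at 26.7 and 38.1 FPKM, against 35.9 and 36.1 FPKM in the wild-type samples. Ly96 was thus highest where Tlr4 was lowest, and its germline KO and wild-type samples overlapped. Neither difference passed the rule.

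Of the endosomal receptors, Tlr8 differed the most. Its human counterpart senses single-stranded RNA. It was at 0 and 0.0379 FPKM in the aberrant-marker samples and 24.6 and 26.5 FPKM in the normal-marker samples, against 25.7 and 27.1 FPKM in the conditional control samples. By the estimated depth this was about 0 and 1 read in the aberrant-marker samples, against about 850.7 and 794 reads in the conditional control samples. The log2 difference was -4.75 over the conditional control and -4.70 over the normal-marker library, whose samples overlapped those of the conditional control. With a level this near 0 the size depends on the pseudocount, and the value over the conditional control was -7.80 with 0.1 and -2.65 with 5 FPKM added, past the rule in each case. In the germline KO samples Tlr8 was at 10.2 and 10.1 FPKM, against 16.3 and 15.8 FPKM in the wild-type samples (log2 difference -0.61), a gap smaller than the yardstick difference of -0.68. Against the wild type the aberrant-marker value was -4.07, and it was not called because the wild-type level was under 20 FPKM.

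Tlr7, a receptor of single-stranded RNA and a neighbour of Tlr8 on the X chromosome, was at 8.80 and 9.83 FPKM in the aberrant-marker samples and 11.96 and 13.3 FPKM in the normal-marker samples, against 38.1 and 37.3 FPKM in the conditional control samples. The log2 differences were -1.91 and -1.51. In the germline KO samples it was at 20.5 and 19.2 FPKM, against 12.1 and 11.4 FPKM in the wild-type samples, a log2 difference of 0.71. The conditional control stood above all other libraries, and the wild type was under it by -1.60, so the size of these differences depended on the control. Against the wild type, the aberrant-marker and normal-marker values were -0.31 and 0.10.

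The Tlr7 level is a sum over 6 transcripts, and the division between them was not stable. The RefSeq transcript NM_133211.4 took 28.3% and 8.72% of the Tlr7 sum in the 2 aberrant-marker samples, and NM_001290757.1 took 20.3% and 53.8%. In the conditional control samples the shares were 47.5% and 43.9% for NM_133211.4 and 27.9% and 24.3% for NM_001290757.1. The sums themselves differed by 0.14 log2 units or less between the samples of any group, so only the sum was compared. With the most abundant transcript in place of the sum no difference of the 8 genes changed sign, but the Tlr7 value was 1.22 in place of 0.71 for the germline KO over the wild type and -0.10 in place of -0.40 for the aberrant-marker over the normal-marker library.

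**Figure D2:**
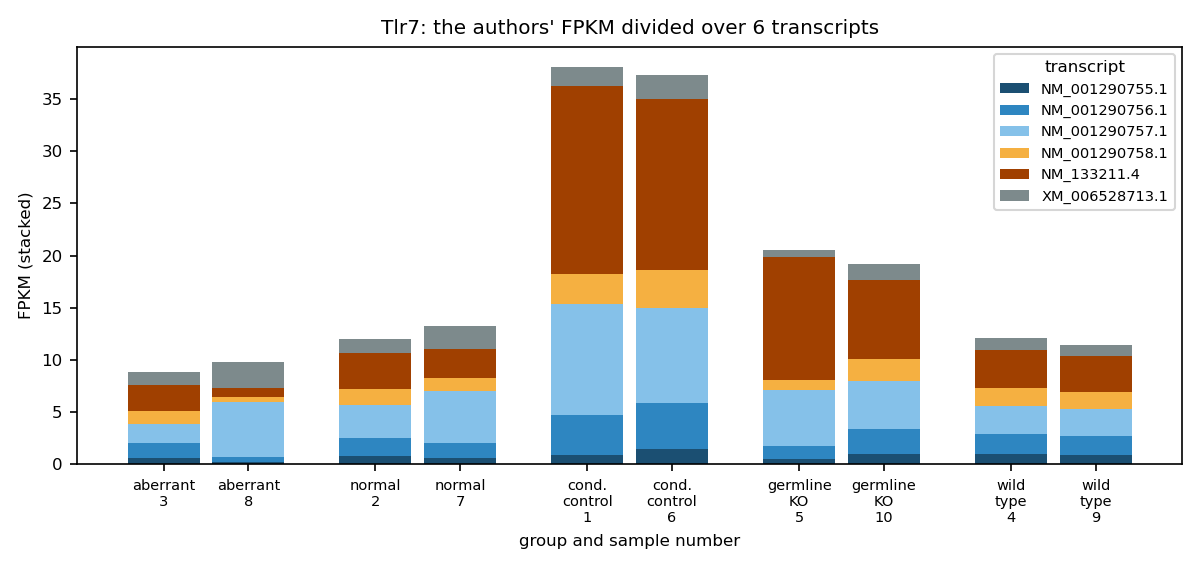
Tlr7 FPKM (vertical axis, linear) in each sample (horizontal axis, group and sample number), stacked by RefSeq transcript (colours). The height of the stack is close within a group, 8.80 and 9.83 FPKM in the aberrant-marker samples and 38.1 and 37.3 FPKM in the conditional control samples, while the division between transcripts differs between the 2 aberrant-marker samples.

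Tlr13, which in mice detects bacterial ribosomal RNA, was at 9.42 and 9.67 FPKM in the aberrant-marker samples and 9.47 and 10.1 FPKM in the normal-marker samples, against 12.005 and 11.5 FPKM in the conditional control samples. It was at 20.9 and 21.0 FPKM in the germline KO samples, against 28.1 and 29.0 FPKM in the wild-type samples. The aberrant-marker and normal-marker samples overlapped. The difference of the wild type over the conditional control, 1.21 log2 units, was larger than that of the aberrant-marker library over the conditional control (-0.27) and of the germline KO over the wild type (-0.43).

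Tlr3, the receptor of double-stranded RNA, also differed more between the controls than within either line. It was at 4.25 and 3.70 FPKM in the aberrant-marker samples and 2.82 and 2.64 FPKM in the normal-marker samples, against 7.83 and 7.77 FPKM in the conditional control samples. It was listed at 0 in both germline KO samples, against 0.0243 and 0.0750 FPKM, about 1 and 3 reads, in the wild-type samples. The wild type was below the conditional control by -3.07 log2 units, with both under the floor of 20 FPKM, and by -5.72 or -1.34 with 0.1 or 5 FPKM added in place of 1. The log2 differences were -0.82 for the aberrant-marker and -1.24 for the normal-marker library over the conditional control. The lines also differed in Eif2s3y and Xist, whose values stand above, and the part of line and of sex in these levels was not tested. In the annotation, exons of Tlr3 overlap those of another gene, Gm45542, and the libraries do not mark strand.

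Tlr9, the receptor of unmethylated CpG DNA, was listed at 0 in all 10 samples. Genes used by every cell were also at 0 in places (Tbp in the wild type) in these libraries from 100 pg of RNA, so Tlr9 is reported only as listed at 0. Plasmacytoid dendritic cells are known for high Tlr9. Of 6 plasmacytoid markers 1 to 3 were at 1 FPKM or more, with the defining gene Siglech far under the worth of a read in all libraries. Bst2, which many cell types express, made up most of their sum. It was at 422 and 112 FPKM in the aberrant-marker samples and 104 and 490 FPKM in the germline KO samples, wide gaps for samples of 1 group.

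Myd88, the adaptor shared by all Toll-like receptors except TLR3 and by interleukin-1 receptors, was at 23.7 and 27.8 FPKM in the aberrant-marker samples and 103 and 104 FPKM in the normal-marker samples, against 74.4 and 77.3 FPKM in the conditional control samples. The log2 differences of the aberrant-marker library were -1.52 over the conditional control and -1.96 over the normal-marker library, just short of the rule. It was at 62.2 and 63.7 FPKM in the germline KO samples, against 50.9 and 52.4 FPKM in the wild-type samples, a log2 difference of 0.28, smaller in size than the yardstick difference of -0.55. The aberrant-marker samples were thus the lowest and the germline KO samples lay between the controls. Exons of Myd88 overlap those of Acaa1a, a peroxisomal thiolase gene, in the GENCODE M21 annotation, and without strand marks reads there cannot be told apart.

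**Figure D3:**
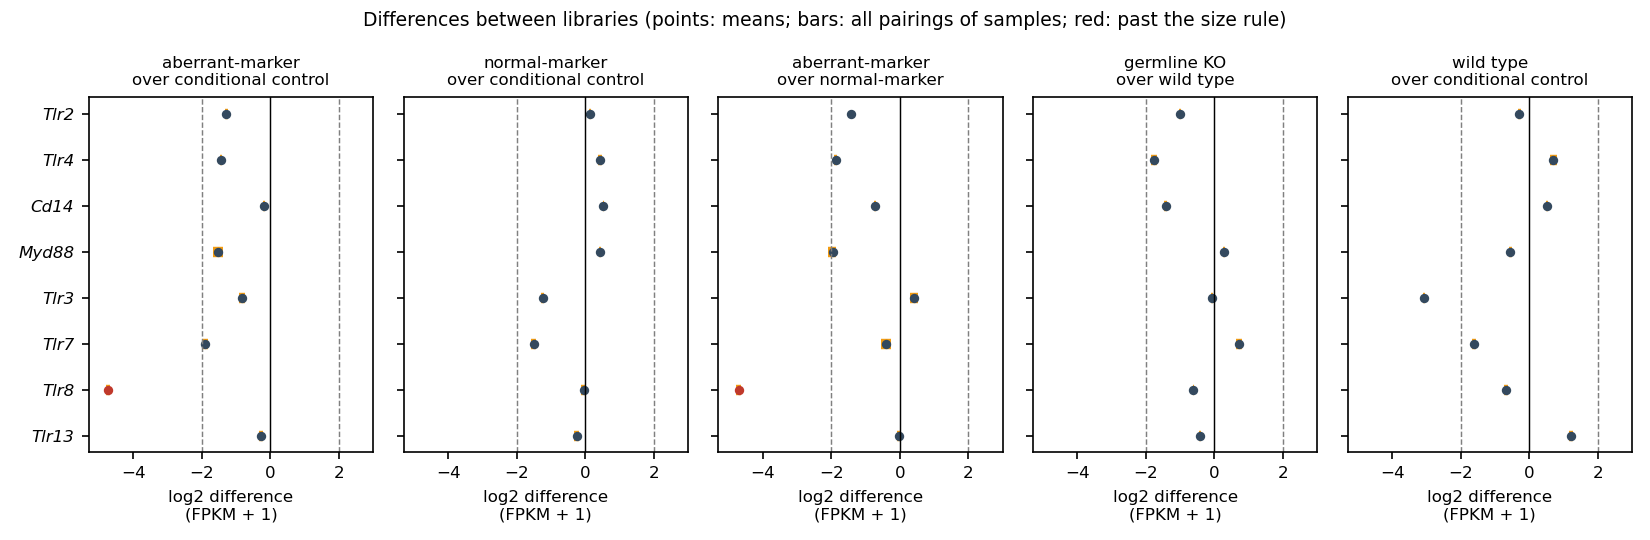
Log2 difference of mean FPKM + 1 (horizontal axis) for 8 genes (vertical axis) in 5 comparisons of libraries. Points are differences of means, orange bars (mostly narrower than the points) the range over all pairings of samples, dashed lines the 4-fold threshold, and red marks calls. Tlr8 alone passed the rule, at -4.75 and -4.70 in the aberrant-marker comparisons, and Tlr3 was at -3.07 in the wild type over the conditional control but under the floor.

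For the other comparisons the calls among the 8 genes were few. In the aberrant-marker over the normal-marker library 1 was lower, Tlr8, against 3.26% of all genes, and 0 were higher against 4.02%. In the normal-marker library over the conditional control 0 were called, against 0.838% lower and 0.935% higher of all genes. In the germline KO over the wild type 0 were called, against 3.36% lower and 2.73% higher. In the wild type over the conditional control 0 were called, against 1.17% lower and 0.935% higher. With 2-fold in place of 4-fold, Tlr2, Tlr4, Tlr8 and Myd88 were lower in the aberrant-marker over the normal-marker library (8.19% of all genes, with 0 of the 8 higher against 9.27%), Tlr7 was lower in the normal-marker library over the conditional control (4.04%, with 0 higher against 3.34%), Tlr4 and Cd14 were lower in the germline KO (8.98%, with 0 higher against 6.13%), and in the wild type over the conditional control Tlr7 was lower (4.15%) and Tlr13 higher (3.81%). The median log2 difference of the 8 genes was 0.05 in the normal-marker library over the conditional control, -1.07 in the aberrant-marker over the normal-marker library, -0.52 in the germline KO and -0.42 in the wild type over the conditional control, where that of all genes was 0.00, 0.02, 0.00 and 0.00.

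The aberrant-marker and germline KO libraries were below all other libraries, with no overlap of samples, for 4 of the 8 genes (Tlr2, Tlr4, Tlr8 and Cd14), and above them for 0. Of all 11336 genes, 14.1% were below and 11.8% above in this way. This grouping was chosen after the values were seen. Alveolar macrophage markers were among the genes that differed in both libraries, 7 of 11 lower in the aberrant-marker library and 5 lower and 1 higher in the germline KO, as given above. The part of a change in cell types in the receptor levels was not tested.

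In the aberrant-marker library the other genes of the pathway differed by role. Of 76 pathway genes measured outside the 10, 14 were higher and 2 lower than in the conditional control, with a median log2 difference of 0.62, where 4.09% of all genes were higher and 3.76% lower. The list median was -1.82 for 3 other receptors, -1.44 for 4 other adaptors, -0.05 for accessory proteins and 0.23 for kinases and ligases, with 0 higher in each, and 0.87 for transcription factors, 2.00 for inhibitors and 1.67 for targets, which held all 14 higher genes. Whether these lists differ from the receptor genes was not tested. Of 11 transcription factors 5 were higher and 0 lower: Relb, a subunit of alternative NF-kB (288 against 10.7 FPKM), Nfkb2 (207 against 19.1), Irf5 (435 against 54.9), Nfkb1 (125 against 17.1) and Rel (33.2 against 4.01). Of 13 inhibitors 5 were higher and 0 lower, led by Socs1, a brake on cytokine signalling (84.7 against 0.0667 FPKM), Zfp36, which destabilises cytokine mRNA (355 against 24.3), and Tnfaip3, the A20 gene (46.7 against 5.21).

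Of 15 NF-kB or interferon target genes 4 were higher and 0 lower in the aberrant-marker library. Of all genes, 4.09% were higher and 3.76% lower there. The chemokine gene Ccl5 was at 516 FPKM against 0.498 FPKM in the conditional control, Cd40 was at 136 FPKM and listed at 0 in the conditional control, and the costimulatory genes Cd86 (111 against 13.3) and Cd80 (20.9 against 1.76) were higher too. Tnf was at 4.16 FPKM against 4.52 FPKM and Il1b at 0.158 against 15.2 FPKM, both under the floor. The same library held the T cell and dendritic cell transcripts given above, and which cells carried the pathway transcripts was not tested.

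The lower pathway genes of the aberrant-marker library were Pik3ap1, an adaptor linking receptors to phosphoinositide 3-kinase (18.7 against 215 FPKM in the conditional control), and Mapk14, the p38 alpha kinase (13.95 against 83.4). Of 13 accessory proteins 0 were called. They include Unc93b1, which carries nucleic acid receptors to the endosome, at 130 and 133 FPKM in the aberrant-marker samples, against 279 and 277 FPKM in the conditional control samples. Among 14 genes of sensors and their signalling partners outside the family 2 were higher and 3 lower, with a list median of -1.28. Of all genes, 4.09% were higher and 3.76% lower. The higher ones were the sensor gene Zbp1 (47.5 against 4.08) and the kinase gene Ripk2 (35.8 against 5.18). The lower ones were the RIG-I adaptor gene Mavs (1.93 against 78.2), Nod1 (listed at 0 against 20.8) and Naip2 (3.61 against 33.3).

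**Figure D4:**
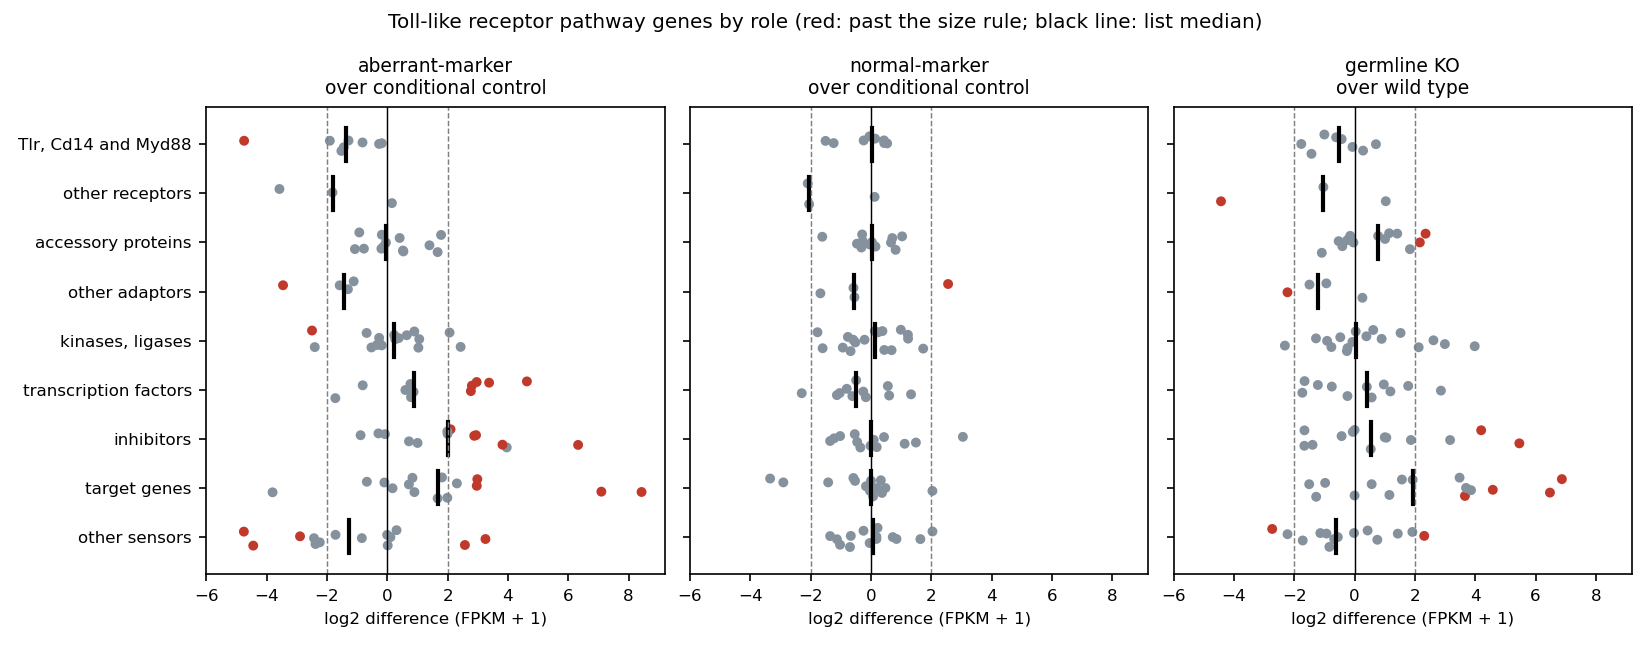
Log2 difference of mean FPKM + 1 (horizontal axis) of single genes (points) by role in the pathway (vertical axis), in 3 comparisons of libraries. Red points passed the size rule and black lines are list medians. In the aberrant-marker library the 8 receptor, co-receptor and adaptor genes had a median of -1.37 and the inhibitors one of 2.00.

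In the normal-marker library 1 of the 76 pathway genes was higher and 0 lower, where 0.935% of all genes were higher and 0.838% lower. The gene was Ticam1, the TRIF adaptor gene, at 22.0 and 23.8 FPKM against 3.11 and 3.01 FPKM in the conditional control samples. In the aberrant-marker over the normal-marker library 15 were higher and 2 lower, where 4.02% of all genes were higher and 3.26% lower. Ticam1 (0.874 against 22.9 FPKM) and Pik3ap1 (18.7 against 143 FPKM) were the lower ones. The higher ones were led by Relb (288 against 7.32 FPKM), Rel (33.2 against 0.0205) and Irf5 (435 against 48.7) among transcription factors, Zfp36 (355 against 18.8), Socs1 (84.7 against 7.82) and Nfkbia, the gene of the NF-kB inhibitor alpha (786 against 89.5), among inhibitors, and Ccl5 (516 FPKM against far under a read), Cd40 (136 against 0.255) and the chemokine gene Ccl4 (25.3 FPKM, listed at 0 in the normal-marker library) among targets. The median of the 76 was -0.10 and 0.39 in these comparisons.

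In the germline KO 8 of the 76 pathway genes were higher and 2 lower than in the wild type, with a median of 0.47, where 2.73% of all genes were higher and 3.36% lower. The higher ones were the chemokine genes Ccl3 (162 against 0.389 FPKM), Ccl4 (23.0 FPKM, listed at 0 in the wild type), Ccl5 (88.2 FPKM against far under a read) and Cxcl2 (28.9 against 1.37), the inhibitors Socs1 (43.2 FPKM, listed at 0 in the wild type) and Socs3 (116 against 5.40), and the endosomal proteases Lgmn (377 against 72.9) and Ctsl (843 against 187), which process endosomal receptors. Ccl3 was at 23.0 FPKM in the conditional control, so the size of its difference depended on the control. Tlr5 and Pik3ap1 (53.6 against 254) were the lower ones. Of 11 transcription factors 0 were called there. The germline KO library also held the Il7r and Ccr7 transcripts given above, and their part in these differences was not tested. Between the controls 1 of the 76 was higher and 2 lower in the wild type, where 0.935% of all genes were higher and 1.17% lower. The higher one was Tlr5, as given above. The lower ones were Tnip1, an inhibitor gene (7.14 against 37.6 FPKM in the conditional control), and Ccl3 (0.389 against 22.95 FPKM).

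The most abundant accessory genes were those of the endosomal proteases cathepsin S and cathepsin B. Ctss was at 3710.3 and 3915 FPKM in the aberrant-marker and normal-marker libraries, against 3831 FPKM in the conditional control, and at 8189 FPKM in the germline KO against 3700.2 FPKM in the wild type. Ctsb was at 777 and 860 FPKM, against 542 FPKM in the conditional control, and at 1959.9 FPKM in the germline KO against 548 FPKM in the wild type. Ticam2, whose product links TLR4 to TRIF, was at 8.89 and 19.2 FPKM in the aberrant-marker and normal-marker libraries, against 28.5 FPKM in the conditional control, and at 24.7 FPKM in the germline KO against 48.2 FPKM in the wild type. Peli1, a ubiquitin ligase gene, was at 59.7 and 18.8 FPKM, against 28.7 FPKM in the conditional control, and Tmem173, the STING gene, at 50.7 and 42.2 FPKM, against 50.2 FPKM. Ctss, Ctsb, Ticam2, Peli1 and Tmem173 were called in none of the 5 comparisons.

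Genes with a pattern like that of a receptor were sought over the 5 libraries among 5314 genes with at least 20 FPKM in 1 of them, by the root mean square difference of centred log2(FPKM + 1) values, for the 3 receptors whose levels spanned at least 2 log2 units with at least 5 FPKM. The nearest to Tlr8 were Mical1 (0.16 log2 units), Rxra (0.21) and Pnpt1 (0.26), and Mical1 was at 1.09 FPKM in the aberrant-marker library, 55.1 and 56.9 FPKM in the normal-marker and conditional control libraries, 23.4 FPKM in the germline KO and 46.7 FPKM in the wild type. The nearest to Tlr4 were Hip1 (0.12), the tetraspanin gene Cd81 (0.13) and Zmat2 (0.15). The nearest to Tlr3 were Scgb1a1 (0.28), an airway epithelial gene, Usp10 (0.36) and Ntpcr (0.36). Scgb1a1 was at 31.8, 30.1 and 39.7 FPKM in the aberrant-marker, normal-marker and conditional control libraries and at 5.22 and 6.56 FPKM in the germline KO and wild-type libraries. Other epithelial markers had other patterns. In the same order of libraries, Epcam was at 26.0, 31.9, 126, 0.0360 and 147 FPKM and Cdh1 at 17.8, 43.4, 19.6, 69.2 and 17.0 FPKM. Sftpc and Sftpb were listed at 0 in every sample, and Nkx2-1 was at 0.0587 FPKM or less. With 5 libraries, such likeness is a description.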

How the data were processed

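Per the labels' protocols, cDNA came from an input of 100 pg RNA (SMARTer kit, 18 PCR cycles), without molecular identifiers or strand marks. The deposited table holds the authors' FPKM values for 45913 RefSeq transcripts in 10 columns, each matched to a sample by its title. Bowtie 1.1.2 and eXpress 1.5.1 are among the tools listed in the submitters' processing notes, which do not give their roles. Sources used here give no genome build, filter or pooling.

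For each Entrez gene, transcript values were added up with pandas 2.3.3 and NumPy 2.4.6 (Python 3.11.15). Logs were taken as log2(FPKM + 1), so differences of low genes are understated. The mean of both samples of a group stands for 1 library, and a rule of size replaced a test. Depth was estimated from the commonest product of low values and GENCODE M21 transcript lengths (9126 transcripts over 1.5 kb), searched between 4 M and 20 M fragments. It rests on annotated lengths and is approximate.

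Of 180 gene names fixed in lists, 174 were found. Some pathway genes are not analysed here. The members, the lists and the rule were chosen with earlier results of these data known. All 10 members are named. Of each other list the rule named up to 3 called genes per direction, and further genes, the motifs and the printed promoters were chosen after values were seen. Figures were drawn with Matplotlib 3.10.9.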

Additional observations from a re-analysis of the deposited data

Results flagged for a closer look

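Some genes moved in opposite directions in the mouse lines, in every pairing of samples, between the conditional knockout fractions (over the conditional control) and the germline KO (over the wild type). These differences between the lines were not tested, and in 0 of the 6 cases were both moves 1 log2 unit or more. For Tlr7 the log2 difference was -1.91 in the aberrant-marker library and 0.71 in the germline KO, which are 2.62 apart, and -1.51 in the normal-marker library, which is 2.21 from the germline KO. For Myd88 it was -1.52 in the aberrant-marker library and 0.28 in the germline KO, 1.81 apart. For Tlr4, Tlr2 and Cd14 it was 0.43, 0.14 and 0.54 in the normal-marker library and -1.77, -1.002 and -1.43 in the germline KO, with the germline KO value less the normal-marker value at -2.20, -1.14 and -1.97. The controls of the lines themselves differ by -1.60 for Tlr7, -0.55 for Myd88, 0.71 for Tlr4, -0.29 for Tlr2 and 0.52 for Cd14 (wild type over conditional control).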

How the results depend on the processing

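No paired analysis was made because each group holds 1 library, and the labels do not say whether groups shared mice. With a 2-fold threshold the number of the 8 genes called was 5 in the aberrant-marker library over the conditional control, 4 over the normal-marker library, 1 in the normal-marker library over the conditional control, 2 in the germline KO and 2 in the wild type over the conditional control, against 1, 1, 0, 0 and 0 with 4-fold. A looser size sets the larger counts by construction. With a floor of 5 FPKM or none, 1 gene, Tlr3, was called in the wild type over the conditional control. Leaving out 1 sample gave 1 to 2 genes called in the aberrant-marker over the normal-marker library, with Myd88 joining Tlr8 without aberrant-marker sample 8. Pseudocounts of 0.1 and 5, means alone, both other scalings, the most abundant transcript and no filter left the counts as they were, but not the sizes. With 0.1 and 5 FPKM added, Tlr8 in the aberrant-marker library was at -7.80 and -2.65 over the conditional control (-4.75 with 1), and Tlr3 in the wild type at -5.72 and -1.34 over the conditional control (-3.07 with 1). The most abundant transcript alone gave 1.22 for Tlr7 in the germline KO (0.71 with the sum). Of the 40 log2 differences, median-ratio scaling changed the sign of 1, Tlr8 in the normal-marker library over the conditional control (0.01 against -0.05), and leaving out a normal-marker sample did so for 2, Tlr8 in that comparison and Tlr13 in the aberrant-marker over the normal-marker library (0.01 against -0.03). With the wild type as the reference, chosen after the data were seen, 5 of 16 changed sign. They were Tlr3 in the aberrant-marker library (2.24) and Tlr3 (1.83), Tlr4 (-0.27), Tlr7 (0.10) and Tlr8 (0.64) in the normal-marker library, while Tlr8 in the aberrant-marker library was at -4.07 and lost its call because the wild-type level was under the floor. Values of Tlr1, Tlr3 and Tlr9 near 0 are limited by depth and input.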
